A study of Rattus norvegicus with 8 samples.

Results

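The 7 genes described here encode adhesion molecules with which the vessel wall slows and holds white blood cells: the selectins Selp and Sele, the immunoglobulin-type adhesion molecules Icam1, Icam2 and Vcam1, the junctional adhesion molecule F11r, and the hyaluronan receptor Cd44. They were taken as every probe set of the array whose platform symbol is exactly 1 of these names, which gave 9 of the 20242 probe sets in the table and 7 of its 11218 singly named genes. Icam2 and Cd44 had 2 probe sets each. All 9 probe sets passed the filter on low values, which asked for a log2 value of 5 or more on any 2 arrays. Sele passed only through ventilated arrays, since both of its control values lay under 5, so its place among the tested probe sets depends on the groups in which it was high.

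The samples were the lower back portion (dorsal-caudal quadrant) of the lungs of male Sprague-Dawley rats of 340 to 400 g, and the series addresses regional injury by mechanical ventilation. 2 control lungs were not ventilated, 3 lungs came from rats ventilated prone and 3 from rats ventilated supine. Both ventilated groups received 18 mL per kg body weight per breath, a high tidal volume, at 40 breaths per minute with a positive end-expiratory pressure of 0 cmH2O for up to 3 hours. The treatment note describes anaesthesia, a tracheotomy and a jugular cannulation without stating separately whether the controls had them, so surgery and ventilation cannot be told apart. The titles call every sample a biological replicate. The array titles of the supine group read SVt where those of the prone group read HVt, and the condition label, high Vt for both, was followed.

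In an inflamed vessel, selectins catch passing leukocytes through sugar-bearing ligands and let them roll, leukocyte integrins then grip ICAM-1, ICAM-2 and VCAM-1, and junctional molecules such as JAM-A, the product of F11r, take part as cells pass between endothelial cells. P-selectin (Selp) is stored in Weibel-Palade bodies of endothelium and in platelet granules and can reach the surface without new RNA, whereas E-selectin (Sele) is made after stimulation by cytokines such as TNF and IL-1 through NF-kappaB. Lung microvessels are known for carrying ICAM-1 at rest, and the lung's capillaries trap neutrophils in part without selectins. All values below are RNA in whole lung tissue, in which fewer cells of a type and less RNA per cell cannot be told apart.

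In ventilated lungs the 2 selectins stood higher, both Icam2 probe sets stood lower, F11r read slightly lower, and Icam1, Vcam1 and Cd44 differed from the controls by at most 0.32 log2 units. No member passed the test in any comparison. The test was limma's linear model over all 8 arrays with a Benjamini-Hochberg adjusted p under 0.05 over 16896 probe sets. Ventilated against control, 0 of the 9 member probe sets passed, against 24 of all probe sets (0.142%). At an unadjusted p under 0.05 there were 3 (Sele higher, Icam2 lower on both probe sets), against 19.2% of all probe sets. In 4 (Sele, Icam2 with both probe sets, and F11r) the 6 ventilated arrays did not overlap the controls, against 29.6%. With 9 probe sets, 2 genes of which are counted by 2 each, these shares are not shown to differ from those of all probe sets. With the replicate number as a block, 0 of all 16896 probe sets passed in each of the 4 comparisons.

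The plot of member values by array shows where the members differ in spread. The controls agreed to within 0.05 log2 units on both Icam2 probe sets, Vcam1, F11r and both Cd44 probe sets, and they were 1.09 apart on Selp and 1.82 apart on Sele.

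**Figure D1:**
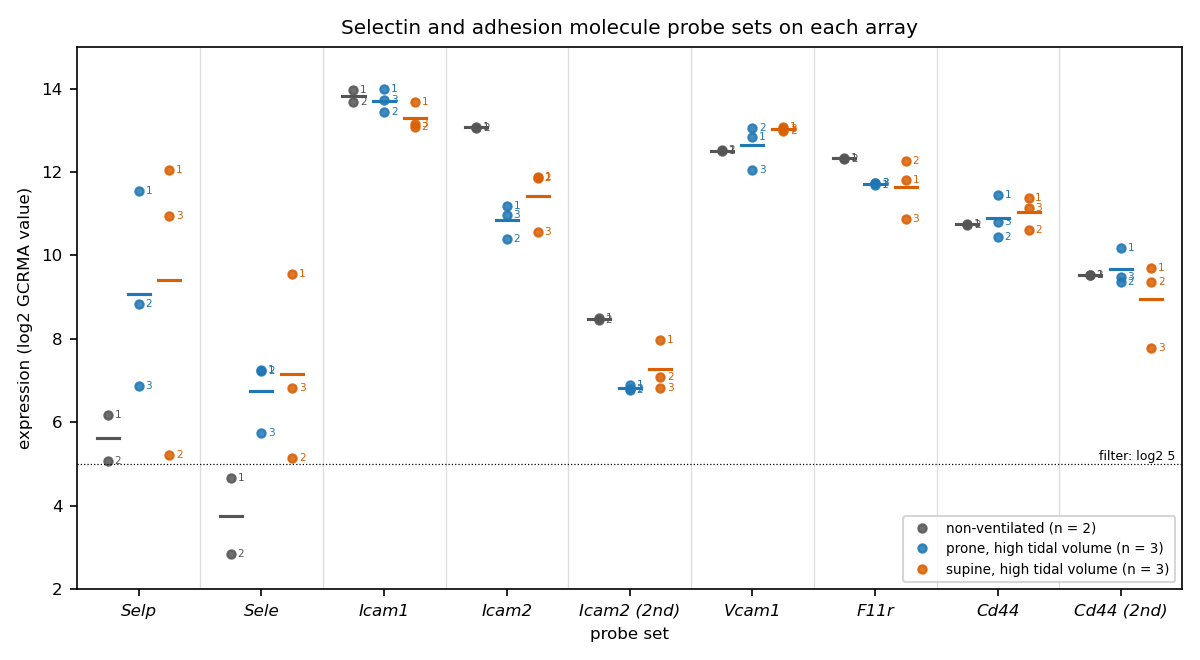
Log2 GCRMA value (y axis) of each member probe set (x axis) on every array: grey, non-ventilated (n = 2); blue, prone (n = 3); orange, supine (n = 3); bars are group means, small numbers are replicate numbers, and the dotted line is the filter at log2 5. Selp spans 6.82 log2 units among the ventilated arrays, and Icam2 lies below both controls on all 6. Heights of different probe sets are not comparable.

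The RNA quality probe sets set supine replicate 3 apart. The 3′ minus 5′ signal of actin was 9.10 log2 units on that array and 3.16 to 4.64 on the other 7, and that of GAPDH was 8.41 against 0.70 to 1.92. Array medians lay between 7.77 and 7.95. The ventilated minus control difference had a median of -0.12 over the 10240 named genes, 42.7% of which stood higher. Of 11 neutrophil markers listed 9 were measured, and all 9 stood higher in ventilated lungs. For Mmp9, Mmp8 and Cxcr2 both control values lay under log2 5, so they passed the filter only through ventilated arrays. None of the 9 passed the adjusted test. An unadjusted p under 0.05 in limma was found for 6, Mmp9 and Mmp8 among them, against 18.5% of all named genes. The summed level of the 9 was 13.73 to 13.82 in controls, 15.03 to 17.06 in prone and 15.25 to 16.89 in supine lungs. Their part in the members' values was not tested.

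Upstream sequence is shown for Sele, Icam1 and Vcam1, because these 3 are members known as targets of cytokines through NF-kappaB and their values in the ventilated lungs were unlike: Sele stood 3.21 log2 units higher, Vcam1 0.32 higher and Icam1 0.31 lower. RefSeq's promoter table for GRCr8 held 5 of the 7 members, without Selp and Icam2. The 250 bases before each start were searched on both strands for the NF-kappaB consensus, for a looser NF-kappaB core, GGNNNTTCC, for the AP-1 motif TGANTCA and for the TATA box TATAAA, and matches are in capitals.
Sele, chr13:78936264-78936513, plus strand: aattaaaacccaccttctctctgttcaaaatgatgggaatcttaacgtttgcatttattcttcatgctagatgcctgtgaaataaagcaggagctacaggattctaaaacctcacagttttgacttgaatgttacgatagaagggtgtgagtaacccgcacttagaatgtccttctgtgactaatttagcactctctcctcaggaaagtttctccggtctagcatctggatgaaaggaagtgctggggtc
Icam1, chr8:27829595-27829844, plus strand: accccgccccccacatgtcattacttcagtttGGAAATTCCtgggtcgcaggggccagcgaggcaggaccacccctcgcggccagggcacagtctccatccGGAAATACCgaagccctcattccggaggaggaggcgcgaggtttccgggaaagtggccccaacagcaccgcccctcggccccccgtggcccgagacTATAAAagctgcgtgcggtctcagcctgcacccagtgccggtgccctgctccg
Vcam1, chr2:206742784-206743033, minus strand: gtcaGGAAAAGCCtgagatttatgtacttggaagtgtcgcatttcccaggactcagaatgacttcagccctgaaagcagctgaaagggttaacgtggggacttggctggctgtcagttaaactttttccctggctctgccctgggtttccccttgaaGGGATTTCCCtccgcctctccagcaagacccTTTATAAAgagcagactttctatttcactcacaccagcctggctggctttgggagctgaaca

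The Icam1 window held 2 matches to the core, GGAAATTCC from 218 to 210 bases before the start and GGAAATACC, a match on the opposite strand, from 149 to 141, and a TATA box from 53 to 48. The Vcam1 window held the consensus as GGGATTTCCC from 93 to 84 bases before the start, which also holds a core match, a core match on the opposite strand as GGAAAAGCC from 246 to 238, and TATA box matches on both strands that overlap, from 62 to 55. The Sele window held none of these letters, which says nothing about binding there or elsewhere. Of the other 2 windows, F11r had 1 AP-1 match, TGAGTCA, from 117 to 111 bases before the start, and Cd44 had none. Among 33469 windows of the same length, 3.54% held the consensus, 15.4% the core, 6.34% the AP-1 motif and 12.9% the TATA box.

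Sele, the cytokine-induced selectin, read 4.66 and 2.84 in the control lungs, 7.25, 7.23 and 5.74 in prone replicates 1 to 3 and 9.55, 5.13 and 6.82 in supine replicates 1 to 3. All 6 ventilated arrays lay above both controls, with supine replicate 1 highest and supine replicate 2 lowest. Group means were 3.75 ± 1.29 (SD, n = 2) for controls, 6.74 ± 0.87 (SD, n = 3) for prone and 7.17 ± 2.23 (SD, n = 3) for supine. Ventilated against control the difference was 3.21 ± 1.10 log2 units (SE), 9.24-fold, with a 95% interval of 0.64 to 5.77, and limma's p was 0.0208 before and 0.190 after adjustment. It ranked 1849th by p and lay at percentile 99.46 of all signed differences. Sele passed the filter only through ventilated arrays, so this rank and percentile depend on the groups in which it was high. Without a filter, limma's p was 0.021 before and 0.195 after adjustment. The control values lie below the filter of log2 5, where a GCRMA value cannot be separated from background, so the fold holds on this scale only.

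Selp, which encodes the stored selectin, had the widest spread of the members. It read 6.17 and 5.08 in controls, 11.55, 8.83 and 6.86 in prone replicates 1 to 3 and 12.04, 5.22 and 10.95 in supine replicates 1 to 3. Of the ventilated arrays 5 lay above both controls, and supine replicate 2 lay between the 2 controls. The means were 5.63 ± 0.77 (SD, n = 2), 9.08 ± 2.35 (SD, n = 3) and 9.40 ± 3.67 (SD, n = 3) for control, prone and supine. The ventilated minus control difference was 3.61 ± 1.86 (SE), 12.2-fold, with an interval from -0.73 to 7.96 and an adjusted limma p of 0.331. The second control and supine replicate 2, at 5.08 and 5.22, lay just above the filter of log2 5, so this fold also holds on this scale only.

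Single arrays set the size of the selectin differences within a position. For Selp in prone lungs, the difference from controls was 2.22 when prone replicate 1 was left out and 4.56 when replicate 3 was. In supine lungs it was 2.45 without supine replicate 1 and 5.87 without supine replicate 2. The Sele difference in supine lungs was 2.23 without supine replicate 1 and 4.44 without supine replicate 2, and over the mean of both positions it ran from 2.30 without the second control to 4.12 without the first. Both genes stayed higher than controls in each of these.

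The array order of Sele and Selp was alike at both ends: supine replicate 1 and prone replicate 1 were the highest and prone replicate 3 and supine replicate 2 the lowest for each gene. For Sele, prone replicates 1 and 2 were nearly level, at 7.25 and 7.23. Platelets also carry P-selectin, and 3 of 7 platelet markers were measured. Pf4, the platelet factor 4 gene, read 10.57 and 10.87 in controls, 10.91, 11.08 and 12.10 in prone and 10.60, 10.46 and 11.65 in supine replicates 1 to 3. Treml1, a receptor of platelet granules, read 4.51 and 4.47 in controls, 5.055, 5.401 and 6.211 in prone and 6.21, 4.25 and 6.08 in supine replicates 1 to 3. Both control values of Treml1 lay under log2 5, so it passed the filter only through ventilated arrays. Its place among the measured markers therefore depends on those arrays. Itga2b, the platelet integrin alpha-IIb, read 6.36 and 6.17 in controls, 5.75, 6.33 and 7.12 in prone and 5.73, 5.69 and 6.81 in supine replicates 1 to 3. All 3 were high in prone replicate 3, where Selp was the lowest of its group. In supine replicate 1, where Selp was highest, Treml1 was above both controls, Pf4 lay between them and Itga2b below them, and all 3 were lowest of the supine group in replicate 2, where Selp was the lowest of the ventilated arrays. The summed level of the 3 platelet markers was 10.67 to 10.94 in controls, 10.97 to 12.17 in prone and 10.53 to 11.73 in supine lungs. Their part in the Selp values was not tested.

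The plot of each array's shift from the control mean sets the members beside the cytokine and marker genes.

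**Figure D2:**
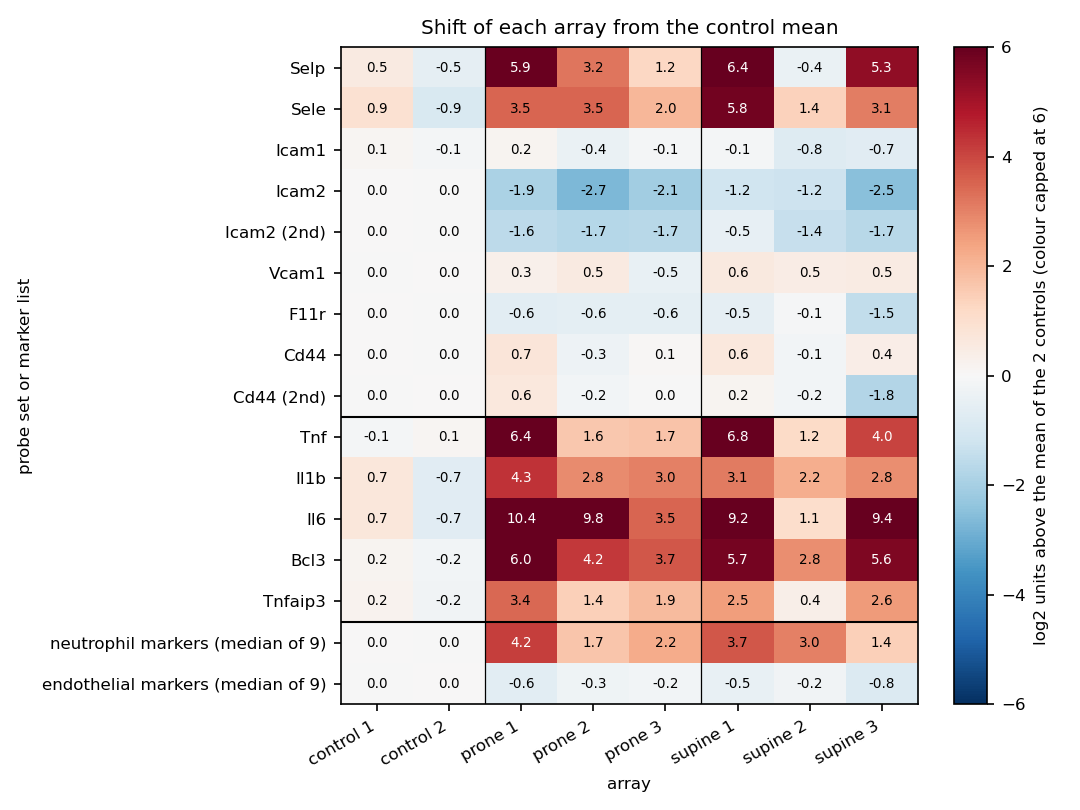
Shift in log2 units of each array (columns) from the mean of the 2 controls for the member probe sets, 5 cytokine and NF-kappaB genes, and the median of 9 neutrophil and 9 endothelial markers (rows); colour is capped at 6 and the printed number is the shift. Prone replicate 1 and supine replicate 1 have the largest shifts of Selp, Sele and Tnf. For Sele, prone replicate 2 is nearly level with prone replicate 1. Supine replicate 2 has the smallest shifts of both selectins and Il6 among the ventilated arrays.

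Icam1, the main endothelial ligand of the integrins LFA-1 and Mac-1, was close to level. It read 13.96 and 13.69 in controls, 13.99, 13.43 and 13.73 in prone and 13.68, 13.07 and 13.15 in supine replicates 1 to 3. Prone arrays lay on both sides of the controls, and all 3 supine arrays lay below both, replicate 1 only just. The ventilated minus control difference was -0.31 ± 0.29 (SE), with an interval from -0.99 to 0.36 and an adjusted limma p of 0.574. Prone lungs gave -0.11 ± 0.32 and supine lungs -0.52 ± 0.32.

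Vcam1, the endothelial ligand of the integrin VLA-4, read 12.49 and 12.54 in controls, 12.83, 13.05 and 12.06 in prone and 13.08, 12.98 and 13.03 in supine replicates 1 to 3. The supine arrays lay close together above both controls, and in the prone group replicate 3 lay below them. Means were 12.52 ± 0.03 (SD, n = 2), 12.65 ± 0.52 (SD, n = 3) and 13.03 ± 0.05 (SD, n = 3). Against control the difference was 0.13 ± 0.35 in prone and 0.51 ± 0.35 in supine lungs, with adjusted limma p of 0.875 and 0.491. The prone value was 0.43 when replicate 3 was left out and -0.07 when replicate 2 was.

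Icam2, an LFA-1 ligand that resting endothelium and platelets carry, gave the smallest p of the members. Its first probe set read 13.09 and 13.06 in controls, 11.19, 10.40 and 10.97 in prone and 11.87, 11.85 and 10.56 in supine replicates 1 to 3. All 6 ventilated arrays lay below both controls, with a gap wider than that between the controls. The ventilated minus control difference was -1.94 ± 0.42 (SE), a level 3.83-fold lower, with an interval from -2.92 to -0.95, and limma's p was 0.00208 before and 0.105 after adjustment. It ranked 332nd by p, with 2.24% of differences at or below it.

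The second Icam2 probe set placed the same 3 ventilated arrays highest and the same 1 lowest. It read 8.49 and 8.45 in controls, 6.91, 6.77 and 6.80 in prone and 7.97, 7.08 and 6.81 in supine replicates 1 to 3. Its difference was -1.41 ± 0.34 (SE), with an adjusted limma p of 0.114. The prone values of this probe set were tight, at 6.83 ± 0.07 (SD, n = 3), while supine replicate 1 stood apart from the other 2 supine arrays. Leaving out single arrays moved the first probe set between -2.05 and -1.72 over both positions, and in supine lungs to -1.22 without replicate 3, the array with the high 3′ to 5′ signals.

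With prone replicate 1 and supine replicate 1 left out together, a setting chosen after seeing the data, the second Icam2 probe set passed, at -1.60 ± 0.21 with an adjusted limma p of 0.0406 for ventilated lungs and -1.68 ± 0.24 with 0.0379 for prone lungs. In that setting 427 and 808 of all 16628 probe sets tested passed, against 24 and 9 with all arrays. With weights estimated for each array by limma, both Icam2 probe sets and Sele passed in ventilated and in prone lungs. Those weights gave each of the 2 controls 4.67 and prone replicate 1 0.283, and 4704 and 5724 of all 16896 probe sets then passed, against 24 and 9.

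Endothelial markers beyond the members had means below the controls. All 9 measured of 11 listed stood lower in ventilated lungs, none passed, 0 had an unadjusted p under 0.05 in limma, and the median difference was -0.51, between -0.83 for Tek, the angiopoietin receptor, and -0.16 for Eng, a TGF-beta co-receptor. Their summed level was 15.87 to 15.91 in controls, 15.06 to 15.84 in prone and 15.12 to 15.70 in supine lungs. The Icam2 difference lay below those of all 9 markers on both probe sets, and the difference between Icam2 and the markers was not tested. Of the lists below, Jam2, the lowest of 11 junction molecules, gave -1.46, Edn1 -1.64 and Rab3d -1.75, all between the values of the 2 Icam2 probe sets. Edn1 read 5.93 in supine replicate 3, the array with the high 3′ to 5′ signals, against 7.88 to 9.05 on the other ventilated arrays. The part of endothelial RNA content in the Icam2 values was not tested.

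**Figure D3:**
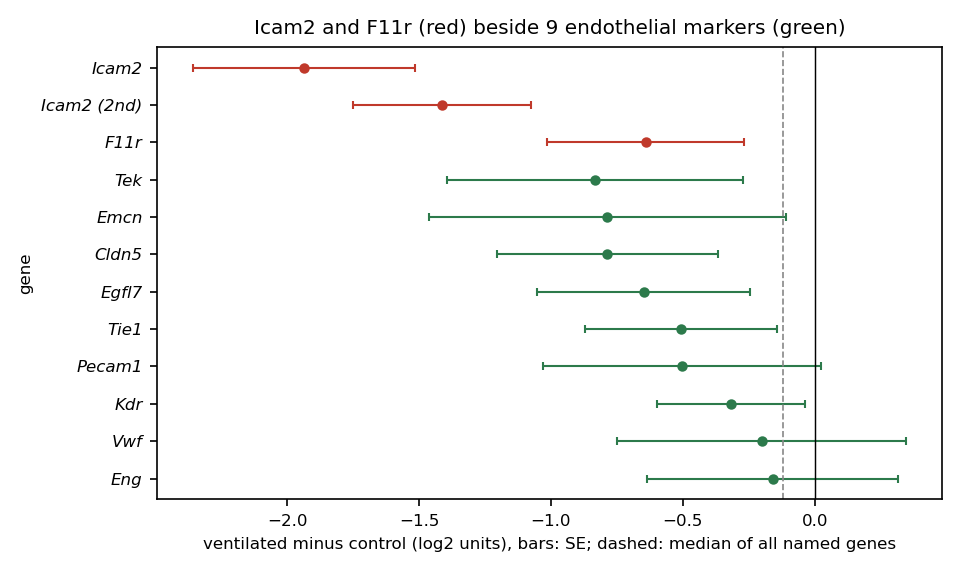
Ventilated minus control difference (x axis, log2 units, bars are the standard error of the linear model over 8 arrays) for Icam2, F11r and 9 endothelial markers (y axis); the dashed line is the median of all named genes, -0.12. Icam2 lies at -1.94 and -1.41, and the lowest marker, Tek, at -0.83.

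F11r, which encodes JAM-A of endothelial and epithelial tight junctions and of platelets, read 12.34 and 12.32 in controls, 11.69, 11.75 and 11.74 in prone and 11.81, 12.27 and 10.87 in supine replicates 1 to 3. All 6 ventilated arrays lay below both controls, the 3 prone ones close together and supine replicate 2 only just below. The difference was -0.64 ± 0.37 (SE), 1.56-fold lower, with an interval from -1.51 to 0.23 and an adjusted limma p of 0.383. In supine lungs it was -0.68, and it was -0.29 without replicate 3 and -0.99 without replicate 2. Being also an epithelial gene, F11r is set beside alveolar type 1 markers: 6 of 7 measured of 8 listed stood lower, with a median of -0.84 and a summed level of 16.28 to 16.33 in controls, 15.54 to 15.89 in prone and 15.46 to 15.95 in supine lungs. The part of those cells in the F11r values was not tested.

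Cd44, the hyaluronan receptor of leukocytes and many tissue cells and a ligand of E-selectin in some glycoforms, was measured by 2 probe sets that did not agree in direction. The first read 10.75 and 10.74 in controls, 11.45, 10.44 and 10.81 in prone and 11.38, 10.60 and 11.13 in supine replicates 1 to 3. The ventilated arrays lay on both sides of the controls, with replicate 1 highest in each position. The second read 9.53 and 9.54 in controls, 10.17, 9.35 and 9.49 in prone and 9.70, 9.38 and 7.78 in supine replicates 1 to 3. Ventilated minus control differences were 0.22 ± 0.35 and -0.22 ± 0.52 (SE), with adjusted limma p of 0.752 and 0.838. The supine difference of the second probe set was -0.58 with all arrays and 0.0026 without supine replicate 3, so its sign rested on the array with the high 3′ to 5′ signals. Macrophages carry CD44 too, and 3 of their 4 measured markers of 8 listed stood lower, with a median of -0.23 and a summed level of 12.65 to 12.90 in controls, 11.63 to 13.44 in prone and 12.35 to 13.37 in supine lungs. It was highest in replicate 1 of each position, as Cd44 was. The summed level of the neutrophil markers was also highest there, at 17.06 in prone and 16.89 in supine lungs. Within the macrophage list Mrc1 differed and was lowest of all arrays in supine replicate 1, at 10.27. The part of these cells in the Cd44 values was not tested.

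Prone against control, 0 of 9 member probe sets passed in limma, against 9 of all probe sets (0.0533%). There were 3 at an unadjusted p under 0.05, Sele and both Icam2 probe sets, against 17.7%, and 5 whose groups did not overlap (Selp and Sele higher, both Icam2 probe sets and F11r lower), against 48.6%. Sele stood 2.99 ± 1.23 higher (SE, adjusted p = 0.266), Selp 3.45 ± 2.08 higher (0.434) and Icam2 gave -2.22 ± 0.47 (0.108).

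Supine against control, 0 of 9 passed, against 9 of all probe sets (0.0533%). The 3 with an unadjusted limma p under 0.05 were the same probe sets, against 15.2%, and 6 groups did not overlap (Sele and Vcam1 higher, Icam1, both Icam2 probe sets and F11r lower), against 41.8%. Sele stood 3.42 ± 1.23 higher (SE, adjusted p = 0.285), Selp 3.77 ± 2.08 higher (0.413), and Icam2 gave -1.65 ± 0.47 (0.232). Because prone and supine lungs were set against the same 2 controls, their values are given side by side and their likeness is not counted as a result.

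Between the positions no member was distinguishable at this number of arrays. Supine against prone, 0 of 9 member probe sets passed in limma and 0 had an unadjusted p under 0.05, against 0 (0%) and 4.09% of all probe sets, and the groups overlapped for every member, against 5.89% that did not. The intervals show what remains possible. For Selp the supine minus prone difference was 0.32, with an interval from -4.03 to 4.67, and for Sele it was 0.43, from -2.14 to 2.99. The intervals of the other members were narrower: -1.09 to 0.26 for Icam1, -0.34 to 1.11 for Vcam1 and -0.95 to 0.79 for F11r. For Icam2 they were -0.41 to 1.55 on the first probe set and -0.33 to 1.25 on the second. The Cd44 probe sets differed in sign, at 0.14 (-0.68 to 0.96) for the first and -0.72 (-1.93 to 0.49) for the second. The smallest adjusted p was 0.942.

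**Figure D4:**
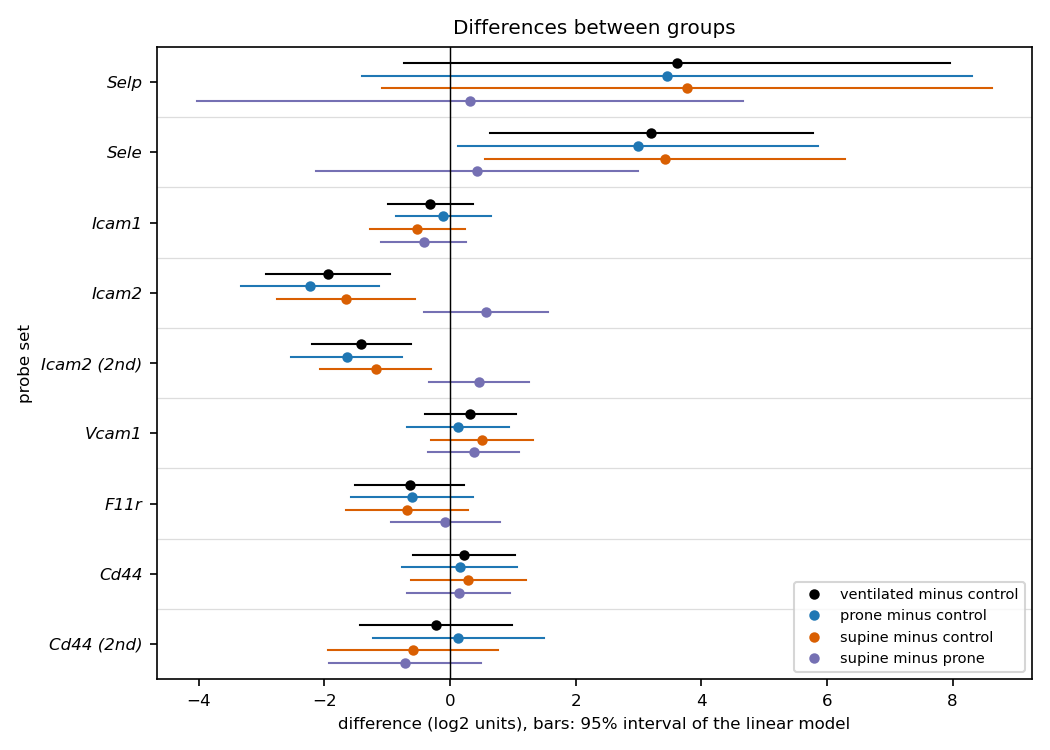
Differences between groups in log2 units (x axis) for each member probe set (y axis), with 95% intervals of the linear model over 8 arrays; black, mean of both positions minus control; blue, prone minus control; orange, supine minus control; purple, supine minus prone. All 9 supine minus prone intervals include 0, and the Icam2 intervals against control lie below 0.

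Over all named genes, 42.7% stood higher in ventilated lungs and 18.5% had an unadjusted limma p under 0.05, and the counts of the lists below are given beside these shares. The first list holds cytokines known to induce endothelial adhesion molecules, with their receptors. All 9 measured of 13 had a mean above that of the controls, 4 of them cytokines and 5 receptors, with a median difference of 1.17 against -0.12 over all named genes, and 3 had an unadjusted limma p under 0.05, but none passed after adjustment. Il6, the acute-phase cytokine, read 3.65 and 2.32 in controls, 13.35, 12.82 and 6.46 in prone and 12.23, 4.05 and 12.42 in supine replicates 1 to 3, with a difference of 7.24 ± 2.61 (SE, adjusted p = 0.205 in limma). Il6 was lowest of the ventilated arrays in supine replicate 2 and prone replicate 3, the 2 arrays with the lowest Selp and Sele. Tnf read 3.28 and 3.49 in controls, 9.74, 5.01 and 5.10 in prone and 10.23, 4.55 and 7.42 in supine replicates 1 to 3. It was highest in the same 2 arrays as Selp. Both control values of Il6 and of Tnf lay under log2 5, where they cannot be separated from background. Both genes passed the filter only through ventilated arrays, so their count among the 9 higher depends on those arrays. Il6 was also 1 of the 3 genes with an unadjusted limma p under 0.05. In supine replicate 2, Il1a and the receptor Il4r lay below both controls, at 6.97 and 9.90. Il1b read 9.49 and 8.16 in controls and between 11.02 and 13.14 in ventilated lungs, 3.05 ± 0.53 higher with an adjusted p of 0.0816.

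Of the NF-kappaB subunits and feedback genes 8 of 9 measured of 11 stood higher, with a median of 1.13, 3 at an unadjusted limma p under 0.05 and none after adjustment. Bcl3, a nuclear IkappaB protein, read 5.42 and 5.12 in controls and 8.05 to 11.22 in ventilated lungs, 4.67 ± 0.88 higher (SE, adjusted p = 0.0846). Birc3, an inhibitor of apoptosis, stood 2.67 ± 0.72 higher with an adjusted p of 0.137. Nfkbia, the IkappaB-alpha gene, gave -0.02 ± 0.64, with 13.25 in prone replicate 1 and 10.57 in prone replicate 2. These genes and Sele share RNA from the same arrays, and no relation between them was tested.

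Weibel-Palade body genes, which store P-selectin with von Willebrand factor, did not stand higher as a list: 5 of 7 were lower, with a median of -0.25. None passed, and 3 had an unadjusted limma p under 0.05. Rab3d, a granule Rab protein, read 10.00 and 10.02 in controls and 7.81 to 8.86 in ventilated lungs, -1.75 ± 0.32 (SE, adjusted p = 0.0846). Edn1, the endothelin-1 gene, stood at -1.64 ± 0.70 and Plat, the tissue plasminogen activator gene, at 1.14 ± 0.32. Sheddases, proteases that can release adhesion molecules from the cell surface, gave 3 of 4 higher and none past the test. Mmp9, also a neutrophil granule gene, read 3.62 and 3.81 in controls and 6.94 to 9.73 in ventilated lungs, 4.50 ± 0.77 higher on this scale (SE, adjusted p = 0.0816 in limma), and Adam8 stood 1.62 ± 0.63 higher. Both control values of Mmp9 lay under log2 5, so Mmp9 passed the filter only through ventilated arrays. Adam17, which sheds several adhesion molecules, gave 0.11 ± 0.34.

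The ligands that selectins bind, and the enzymes that build them, were evenly split: 6 of 12 measured of 17 stood higher and 6 lower, with a median of -0.04, 3 at an unadjusted limma p under 0.05 and none after adjustment. Chst4, a sulphotransferase of high endothelial venules, read 6.06 and 7.89 in controls and 2.97 to 3.54 in all 6 ventilated lungs, -3.59 ± 0.46 (SE), with an adjusted limma p of 0.0519. Chst4 passed the filter only through the controls, and its ventilated values lie where a level cannot be separated from background, so the size of the difference holds on this scale only. Spn, the leukocyte sialoglycoprotein CD43, stood at -2.65 ± 1.08, and B4galt1, a galactosyltransferase, at 1.89 ± 0.54. Glycam1, a mucin-like glycoprotein of nodal vessels, read 2.97 to 3.12 in 6 arrays, 12.33 in prone replicate 2 and 7.54 in supine replicate 2, so its 2.27 ± 2.54 came from 2 arrays of the same replicate number. Glycam1 passed the filter only through those 2 arrays. Lymphocyte markers were lower in all 9 measured of 10, with a median of -2.23 and a summed level of 11.47 to 12.77 in controls, 8.79 to 10.76 in prone and 10.14 to 11.82 in supine lungs. Their part in the Spn values was not tested.

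Of 8 leukocyte integrins that grip ICAMs and VCAM-1, 5 were measured, 2 of them higher and 3 lower, with a median of -0.39, 1 at an unadjusted limma p under 0.05 and none after adjustment. Itgax, CD11c of myeloid cells, stood 1.88 ± 0.72 higher. Itgal, the alpha chain of LFA-1, stood at -2.60 ± 1.79 and read 1.92 in prone replicate 1 against 8.37 to 11.92 on the other 7 arrays. Supine minus prone Itgal gave 4.15 ± 1.79 (SE, adjusted p = 0.942 in limma). Without prone replicate 1, a setting chosen after seeing the data, it gave 1.77 and Itgax 2.05. Itgb2, the beta chain that LFA-1 and Mac-1 share, gave -0.39 ± 0.43.

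Junction and transmigration molecules stood lower in 10 of 11 measured of 15, with a median of -0.50, 2 at an unadjusted limma p under 0.05, about the 18.5% of all named genes, and none after adjustment. Jam2, the JAM-B gene of endothelium, read 12.33 and 12.72 in controls, 9.22, 11.84 and 11.95 in prone and 9.88, 11.98 and 11.55 in supine replicates 1 to 3. Jam2 was lowest in the 2 arrays where Selp was highest. Its difference was -1.46 ± 0.84. Cd99l2, a CD99 relative used in leukocyte passage, gave -1.33 ± 0.57, and Mcam, the CD146 gene, 0.45 ± 0.32. Cd99l2 and the endothelial marker Tek were, like Jam2, lowest in replicate 1 of each position. The deviations of those 2 arrays from their group means correlated at 0.72 over all tested probe sets. No relation of these genes to the selectins was tested. Pecam1 is both in this list and among the endothelial markers.

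Hyaluronan and CD44 partner genes were lower in 6 of 9 measured of 14, with a median of -0.16, 1 at an unadjusted limma p under 0.05 and none after adjustment, counts near those of all named genes. Tnfaip6, a hyaluronan-binding protein made in inflammation, read 3.70 and 4.43 in controls, 7.92, 8.82 and 7.68 in prone and 6.14, 3.76 and 6.87 in supine replicates 1 to 3, a ventilated minus control difference of 2.80 ± 0.78 (SE, adjusted p = 0.141 in limma). All 3 prone arrays lay above all supine arrays, and supine minus prone it gave -2.55 ± 0.78, with an unadjusted limma p of 0.0122 and an adjusted p of 0.942. Both controls and supine replicate 2 lay under log2 5, so Tnfaip6 passed the filter only through ventilated arrays. Those values cannot be separated from background, so the size of its differences holds on this scale only. Tnfaip6 was the 1 gene of this list at an unadjusted limma p under 0.05 in ventilated lungs. Vcan, the versican gene, stood 1.79 ± 1.08 higher and Mmp14, which cleaves CD44, at -0.89 ± 0.63.

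**Figure D5:**
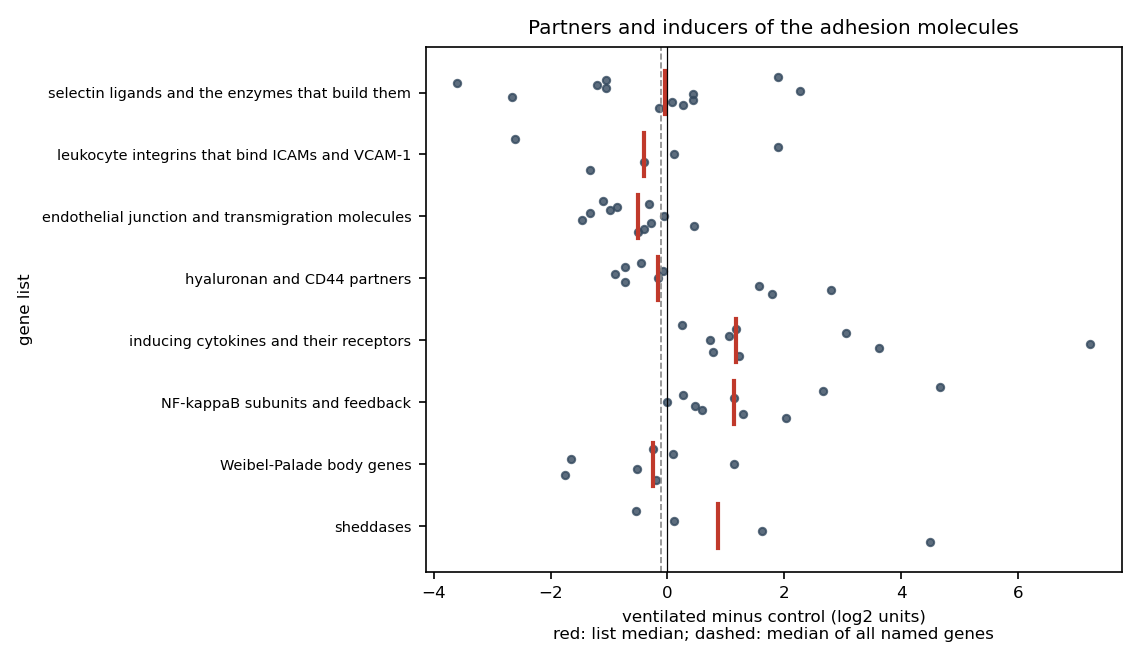
Ventilated minus control difference (x axis, log2 units) of each measured gene in 8 lists of partners and inducers of the members (y axis); each point is a gene, the red bar is the list's median and the dashed line the median of all named genes, -0.12. List medians run from -0.50 for junction molecules to 1.17 for inducing cytokines, and no gene shown passed the test.

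The genes most like each member across the 8 arrays were found by Pearson's r, which here also carries the differences between groups and the spread that arrays share, so r is a description. Selp lay nearest to Rsl24d1 (0.985), Anp32b (0.983) and Wwp2 (0.980). Sele lay nearest to Trappc14 (0.980), Galr2 (0.973) and Actr5 (0.971). For Icam1 they were Mgst2 (0.945), Ndufb11 (0.917) and Mrpl30 (0.917), and for Vcam1 they were S1pr3, a sphingosine-1-phosphate receptor (0.965), Tvp23b (0.956) and Dyrk3 (0.954). Icam2 lay nearest to Foxf1, a transcription factor of lung endothelium (0.990), with Dera and Stx12 at 0.989. Foxf1 read 10.98 and 10.99 in controls, 9.35, 8.62 and 9.34 in prone and 9.88, 9.91 and 8.48 in supine replicates 1 to 3, lower on all 6 ventilated arrays like Icam2. F11r lay nearest to Hmgn2 (0.990), Gpd2 (0.987) and Dazap2 (0.982), and Cd44 to Upp1 (0.985), Adprm (0.982) and Cox19 (0.975).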

How the data were processed

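Total RNA was biotin-labelled and read on 1-colour Affymetrix rat arrays, per the labels' protocols. The deposited values are log2 GCRMA summaries, and Partek 6.5 was used, per the submitters' processing notes. The values ran from 1.01 to 15.72. No detection calls were used here. No source used here gives the authors' own filters, centring or tests.

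RNA quality was read from the 28 Affymetrix control probe sets, which were not tested. Of the others, 16896 reached log2 5 on 2 or more arrays and were tested, and 3318 were not. Symbols came from the platform annotation (13155 tested probe sets with 1 symbol, 319 with several, 3422 with none), and the members matched RefSeq GRCr8 by gene identifier with unchanged symbols. Where a gene had several probe sets, the one with the highest mean stood for it in lists, and every member probe set is given.

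limma 3.58.1 in R 4.3.3 fitted 1 mean per group to all 8 arrays (lmFit, contrasts, eBayes; 5 residual and 2.51 prior degrees of freedom). Tests were two-sided and adjusted by Benjamini-Hochberg within each comparison. The script was tested on simulated data. Errors after ± are model standard errors unless SD is stated. A summed level is log2 of the sum of a list's linear values. The number of arrays limits the precision. No 2 arrays held identical values (largest correlation 0.9876).

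Members and lists were chosen with earlier results of these data known. The text names all members, the 3 genes most like each, and per list up to 2 genes with the largest difference in each direction. Il1b, Il1a, Il4r, Itgb2, Adam17, Tnfaip3 (in a plot) and the marker genes Pf4, Treml1, Itga2b, Tek, Eng, Cnn1, Mmp8, Cxcr2 and Mrc1 were named after their values were seen.

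Replicate numbers are shared between groups. Deviations from group means of same-numbered prone and supine arrays correlated at 0.72, 0.29 and 0.20. Those of same-numbered control and ventilated arrays correlated at 0.21, 0.11, 0.23 and 0.33. Deviations within a group offset each other, so these values are not independent. Prone replicate 3 correlated best with supine replicate 2 (0.40). The labels do not say what a number marks, so whether the numbers pair the samples is not settled. The main fit left them out. A fit with the number as a block was an alternative. Others were filters, scalings, an intensity trend, array weights, the compared groups alone, averaged probe sets and single arrays left out.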

Additional observations from a re-analysis of the deposited data

How the results depend on the processing

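With the replicate block, 0 member probe sets passed in each of the 4 comparisons, as without it. The count of members past the threshold was higher in 4 cases and 0 in the others: 3 probe sets with array weights in ventilated and 3 in prone against control (Sele at 3.09 and 2.94 with limma's adjusted p = 0.0302 and 0.0343, Icam2 at -2.01 and -2.40 with 0.0035 and 0.00165), and 1 in each of the same comparisons without both first ventilated arrays (the second Icam2 probe set). Over all probe sets, ventilated against control, the count of 24 was 5 with the filter at log2 7, 118 without a filter, 11 with the intensity trend, 0 with the block and 427 without both first ventilated arrays. The prone count of 9 was 0, 35, 0, 0 and 808, and 119 with only the compared groups. The supine count of 9 was 0, 18, 0, 0 and 0, 0 with only the compared groups and 36 with array weights. Leaving out single arrays moved these 3 counts to between 0 and 385, 0 and 119, and 0 and 154, and the member count stayed 0. For the mean of both positions the compared-groups setting gives no separate value, since all groups are compared.

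Of the settings run for the members' 28 differences, 475 values kept direction and side of the threshold, 4 newly passed (Sele and Icam2 with array weights) and 18 changed sign, all of differences that had not passed. Icam1 in prone lungs became 0.036 with arrays centred on their medians. Cd44 became -0.085 in prone lungs with array weights, -0.14 in supine lungs and -0.29 in supine against prone with the mean of its probe sets, and -0.12 in prone lungs without both first ventilated arrays, where Sele became -0.50 in supine against prone. Leaving out single arrays gave -0.24 to 0.034 for Icam1, -0.12 to 0.39 for Cd44 and -0.069 to 0.43 for Vcam1 in prone against control. In supine against prone it gave -1.0001 to 2.41 for Selp, -0.76 to 1.45 for Sele, -0.39 to 0.31 for F11r and -0.093 to 0.41 for Cd44. The causes were not tested. With 2, 3 and 3 arrays, intervals of several log2 units remain for the selectins, and low values cannot be separated from background.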

Other observations

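Cells outside the vessel lining also carry VCAM-1 or CD44, and their markers were measured in the same lungs. Mesothelial markers of the lung surface stood lower in ventilated lungs in all 6 measured of 7, with a median of -2.54, and Bnc1, a mesothelial transcription factor, passed the test at -3.75 ± 0.25 (SE, adjusted p = 0.00757 in limma). Bnc1 passed the filter only through the controls, at 6.88 and 6.60, and its 6 ventilated values of 2.69 to 3.11 cannot be separated from background, so the size of that difference holds on this scale only. The summed level of the 6 was 13.79 to 13.88 in controls, 12.87 to 13.01 in prone and 12.49 to 13.37 in supine lungs. Of 8 smooth muscle and pericyte markers, 6 stood higher and none passed, with a median of 0.38, and Cnn1, the calponin gene, gave 2.30 ± 0.57. Their part in the Vcam1 and Cd44 values was not tested.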
